A study of Mus musculus with 93 samples.

Results

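Sult1e1, Serpinb1a, Blnk, Meg3, Nat8 and Cyp2d12 were among the genes with the highest signal in untreated PPARα -/- liver relative to untreated WT liver. The 6 genes had been chosen by the measured difference between the control mice of the genotypes, which was among the largest in both runs of the study, so that difference is described here and not tested. All probesets that carry their symbols were used, 11 of the 11412 probesets that remain of the authors' table after its control probesets are left out, and the 6 genes are among 6661 genes with a symbol. Meg3 has 5 probesets, Serpinb1a has 2 and the others have 1 each. All 11 passed the filter on variation (log2 inter-quartile range no smaller than 0.25) that left 10349 probesets and 6234 genes for testing. The authors had already filtered their table on variation across the samples, so these are not all the probesets of the array. Shares of all probesets or all genes in what follows are shares of this filtered set.

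Liver RNA of 93 male mice was hybridized to Affymetrix whole-genome arrays, 1 array per mouse, in 20 groups. WT mice were 129S1/SvImJ and PPARα -/- mice were 129S4/SvJae. PPARα -/- mice lack PPARα, a nuclear receptor that turns on fatty acid oxidation genes in liver. All had been on a purified run-in diet in which olive oil took the place of corn oil. After a fast of 4 hours each mouse received by gavage 400 µl of vehicle (0.5% carboxymethyl cellulose), of WY14643 or fenofibrate (synthetic PPARα ligands, 10 mg/ml in that vehicle), or of a triglyceride built from 1 fatty acid, and livers were taken 6 hours later. The first run held vehicle controls (3 WT and 5 PPARα -/-), WY14643 (4 and 5), fenofibrate (5 and 5), oleic acid C18:1 (5 and 5), eicosapentaenoic acid C20:5 (5 and 4) and docosahexaenoic acid C22:6 (5 and 5). A later run held its own controls (4 and 4), capric acid C10:0 (5 and 5), linoleic acid C18:2 (4 and 5) and linolenic acid C18:3 (5 and 5). According to the labels, the first-run controls and the mice given WY14643 were 12 to 20 weeks old, and all others 8 to 24 weeks. The genotypes carry different substrain names, so in every comparison below the loss of PPARα and any difference between the substrains cannot be told apart.

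Signals are GC-RMA intensities, given here as log2. The median intensity of an array was 135 to 145 in the first run and 154 to 167 in the later run, and all contrasts were formed within a run. The authors' table holds only probesets that passed their own filter on variation. Medians and percentiles of an array are taken over these probesets and not over the whole array. A signal under the 10th percentile of its own array so defined (a log2 value between 4.76 and 5.13) is called low in what follows. Where every mouse of a group was low, the fold is given as a lower bound against that percentile. A gene with several probesets is represented by the one with the highest mean signal. Of 3 Ppara probesets, one separated all mice, with 5.94 to 7.93 in the 48 PPARα -/- livers and 8.10 to 9.52 in the 45 WT livers. The other Ppara probesets overlapped between the genotypes, with highest values of 10.78 and 9.85 in PPARα -/- livers and lowest values of 10.34 and 8.32 in WT livers. A probe outside the deleted part of the gene does not check the genotype, and where the probes lie was not analysed here. The livers carried the RNA of hepatocytes, since albumin (Alb) had mean signals of 13.86 in treated WT and 13.82 in treated PPARα -/- mice of the first run.

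The 6 genes belong to unrelated families. Sult1e1 encodes estrogen sulfotransferase, which transfers sulfate from the donor PAPS to estrogens and so inactivates them, and it is known as a gene of low expression in healthy male mouse liver. Serpinb1a encodes an intracellular inhibitor of neutrophil serine proteases such as elastase and cathepsin G. Blnk is an adaptor that links the B cell receptor to its downstream kinases and lipases. Meg3 is a maternally expressed long noncoding RNA of the imprinted Dlk1-Dio3 cluster. Nat8 is an N-acetyltransferase that completes the mercapturates formed from glutathione conjugates and is best known from kidney. Cyp2d12 is a member of the mouse Cyp2d cluster of cytochrome P450 genes. In whole liver, a larger number of cells of a given type and more RNA per cell cannot be told apart.

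To show the region just before the transcribed part of the genes, 250 bases upstream of the annotated start were read from RefSeq promoter windows (build GRCm38.p6). Windows were found for 4 of the 6 genes, 6 windows in all, and not for Serpinb1a and Cyp2d12. They were searched on both strands for AGGTCA, the half-site that nuclear receptors bind, for its direct repeat with a single spacer base (AGGTCANAGGTCA, the form bound by PPARα with RXR), and for TGACGTCA, the cyclic AMP response element described for the Meg3 promoter. A direct repeat contains the half-site. The windows of Sult1e1 (chr5:87591612-87591861, minus strand), Blnk (chr19:40994222-40994471, minus strand) and Meg3 (chr12:109540746-109540995, plus strand) are shown because each holds one of these motifs, in capitals. TGACCT is AGGTCA read from the opposite strand.
Sult1e1: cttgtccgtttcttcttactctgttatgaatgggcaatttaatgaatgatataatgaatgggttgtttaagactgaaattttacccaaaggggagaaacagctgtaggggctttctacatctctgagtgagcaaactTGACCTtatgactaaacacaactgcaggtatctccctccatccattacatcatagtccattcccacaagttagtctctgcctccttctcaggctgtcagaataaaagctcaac
Blnk: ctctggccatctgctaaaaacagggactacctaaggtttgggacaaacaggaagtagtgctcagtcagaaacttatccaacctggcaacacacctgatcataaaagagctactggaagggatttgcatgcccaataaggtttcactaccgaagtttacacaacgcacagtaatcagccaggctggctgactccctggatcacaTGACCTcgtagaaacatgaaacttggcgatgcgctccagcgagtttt
Meg3: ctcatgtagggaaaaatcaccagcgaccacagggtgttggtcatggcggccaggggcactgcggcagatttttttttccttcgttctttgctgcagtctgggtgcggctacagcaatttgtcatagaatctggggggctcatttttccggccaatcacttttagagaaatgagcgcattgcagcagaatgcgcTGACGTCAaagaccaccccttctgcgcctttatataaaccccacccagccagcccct
Relative to the start of the gene, the half-site began at position -113 in Sult1e1 and -47 in Blnk, and the cyclic AMP response element at -57 in Meg3. The other Meg3 window, at another annotated start, held a half-site at -141, and the Nat8 windows held none of the motifs. The direct repeat was in none of the 6 windows. Among all 32851 windows of this length in the same set, 14% held the half-site, 0.0335% the direct repeat and 1.55% the cyclic AMP response element. These are matches of letters only.

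In untreated mice, the values that chose the genes were as follows. By the smaller of the differences in the 2 runs, Sult1e1, Serpinb1a and Blnk ranked 1 to 3 of 6234 genes. Cyp2d12, Nat8 and Meg3 ranked 8, 9 and 10. Sqle, Usp18, Ifit1 and Ifit3 lay between them at ranks 4 to 7 and were not picked. Meg3, just inside, differed by 2.58 (log2) in the first run and 3.82 in the later run, and Ppp1r3g, just outside at rank 11, by 2.64 and 2.50.

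**Figure D1:**
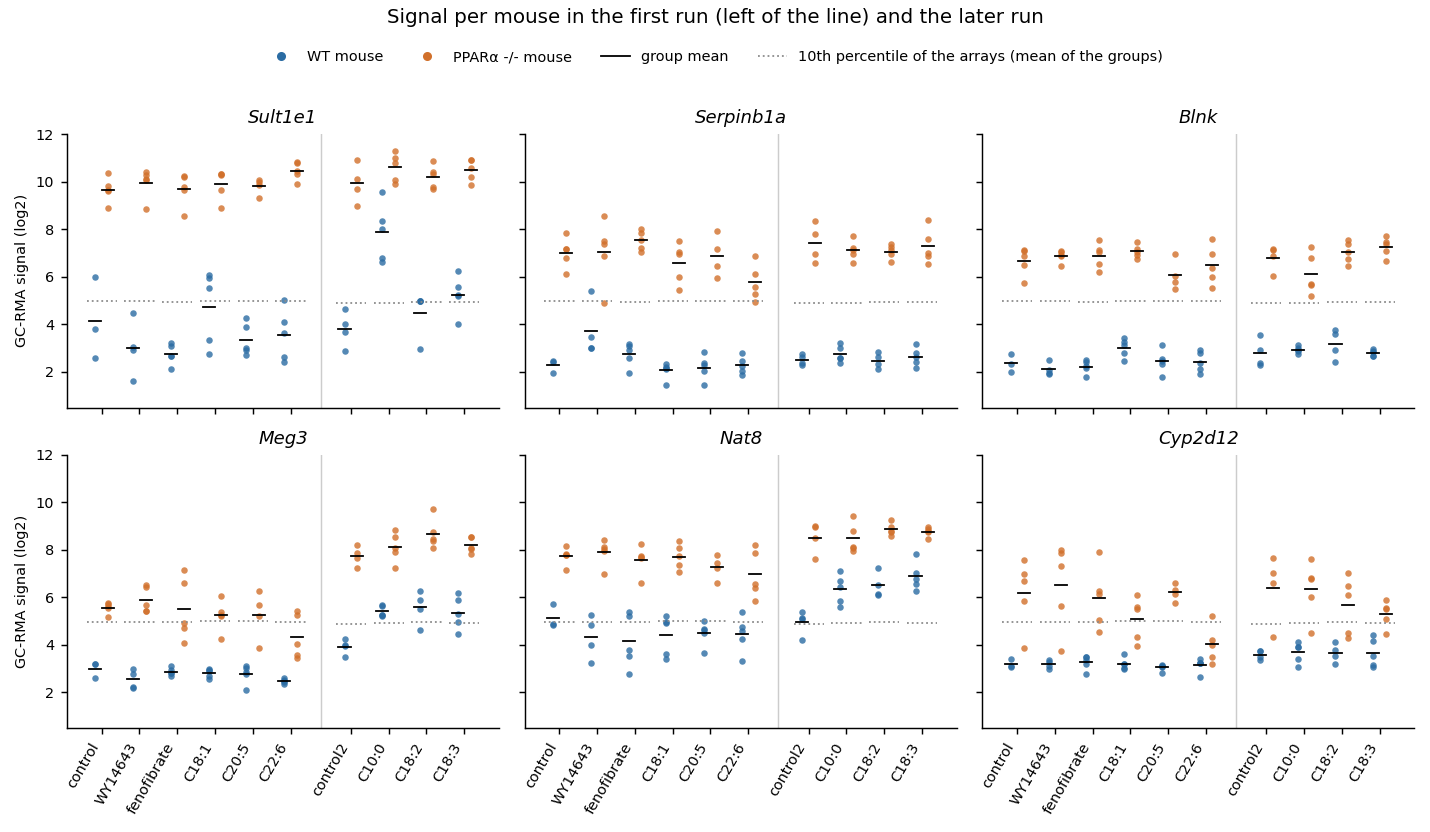
Log2 signal of each gene in each of the 93 mice, by group, first run on the left and later run on the right of the vertical line in each panel. Points are mice, short black bars are group means and the dotted line is the mean 10th percentile of the arrays, taken over the probesets of the authors' table. All Blnk points of PPARα -/- mice lie above the dotted line and all those of WT mice below it, whereas WT Sult1e1 reaches 9.55 with C10:0.

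Sult1e1 had the largest difference between genotypes. In the WT controls its log2 signal was 2.60, 3.82 and 5.98 in the first run and 2.86, 3.68, 4.01 and 4.64 in the later run. In the PPARα -/- controls it was 8.88, 9.59, 9.64, 9.81 and 10.34 in the first run and 8.98, 9.70, 10.10 and 10.93 in the later run. The control groups thus lay far apart, with differences of 5.52 and 6.13 between their means. In treated mice of the first run, which took no part in the choice, the signal was 1.64 to 6.07 in 24 WT mice (median 3.07) and 8.55 to 10.83 in 24 PPARα -/- mice (median 10.10). The later run gave 2.96 to 9.55 in 14 treated WT mice (median 5.42) and 9.68 to 11.27 in 15 PPARα -/- mice (median 10.41). The genotypes did not overlap in either set, although the highest WT mouse of the later run came within the range of PPARα -/- mice of the first run. Over treated mice, with each treatment weighted equally, Sult1e1 was higher in PPARα -/- by 6.48 ± 0.24 (log2, SE) in the first run (adjusted p = 3.1e-38) and by 4.57 ± 0.31 in the later run (adjusted p = 4.9e-22). It ranked 1 and 2 among all 6234 genes in these contrasts. Sult1e1 was low in 30 of the 45 WT mice and in none of the 48 PPARα -/- mice. Where all WT mice of a treatment were low, the fold was at least 33.5 with WY14643, 26.9 with fenofibrate and 28.8 with C20:5.

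Serpinb1a was low in 44 of the 45 WT mice. The WT controls gave 1.94, 2.42 and 2.45 in the first run and 2.27, 2.39, 2.64 and 2.73 in the later run. The PPARα -/- controls gave 6.11, 6.77, 7.17, 7.18 and 7.83, and 6.58, 6.97, 7.80 and 8.33. All WT controls were low and no PPARα -/- control was, and the means differed by 4.74 and 4.91. In treated mice of the first run, WT mice had 1.43 to 5.41 (median 2.35) and PPARα -/- mice 4.91 to 8.54 (median 6.98). In the later run they had 2.11 to 3.21 (median 2.60) and 6.53 to 8.41 (median 7.12). A single WT mouse given WY14643, at 5.41, exceeded the lowest PPARα -/- mice, and the genotypes were otherwise separate. The difference over treated mice was 4.16 ± 0.18 in the first run (adjusted p = 2.3e-33) and 4.53 ± 0.24 in the later run (adjusted p = 2.2e-28). Since all 14 treated WT mice of the later run were low, the fold there is at least 4.63. The other Serpinb1a probeset was low in all 45 WT mice and in 43 of 48 PPARα -/- mice, and its difference was 1.60 and 1.46 (adjusted p = 1.4e-12 and 1.5e-07).

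Blnk was the gene that separated the genotypes without exception. WT controls had 1.98, 2.35 and 2.76 in the first run and 2.28, 2.39, 2.90 and 3.55 in the later run. PPARα -/- controls had 5.72, 6.51, 6.87, 7.09 and 7.13, and 6.05, 6.85, 7.11 and 7.18. The gap between the groups was wide in both runs, with differences of 4.30 and 4.01 between the means. Treated mice of the first run had 1.76 to 3.43 in WT (median 2.44) and 5.47 to 7.60 in PPARα -/- (median 6.92). Those of the later run had 2.41 to 3.76 (median 2.90) and 5.18 to 7.73 (median 7.05). Over all 93 arrays the lowest PPARα -/- mouse was 1.42 above the highest WT mouse. The genotypes were separate in this way for Blnk alone among the 6 genes and for 0.126% of all probesets. The 93 arrays include the controls that chose the genes, so nothing is read from that share. Blnk was low in all 45 WT mice and in no PPARα -/- mouse. Over treated mice it was higher by 4.23 ± 0.14 in the first run (adjusted p = 1.9e-41) and 3.83 ± 0.18 in the later run (adjusted p = 3.6e-31), that is at least 3.36-fold and 3.64-fold.

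Meg3 had a higher signal in the later run in both genotypes. WT controls had 2.59, 3.18 and 3.19 in the first run and 3.47, 3.94, 4.01 and 4.23 in the later run. PPARα -/- controls had 5.18, 5.55, 5.64, 5.72 and 5.75, and 7.22, 7.65, 7.88 and 8.18. The genotypes were separate within each run, whereas WT mice of the later run reached the range of PPARα -/- mice of the first run. Treated mice of the first run had 2.10 to 3.12 in WT (median 2.79) and 3.44 to 7.15 in PPARα -/- (median 5.33), and 8 of these 24 PPARα -/- mice were low. Treated mice of the later run had 4.46 to 6.25 (median 5.39) and 7.22 to 9.71 (median 8.37). The difference over treated mice was 2.55 ± 0.17 in the first run (adjusted p = 7.3e-23) and 2.89 ± 0.22 in the later run (adjusted p = 2.0e-19). Because every treated WT mouse of the first run was low, the fold there is at least 1.25. The other 4 Meg3 probesets pointed the same way, with differences of 1.44 to 2.58 in the first run and 2.76 to 3.32 in the later run and adjusted p values of 1.7e-11 at most. The probeset with the highest mean, used here, is of a kind whose probes can match more than 1 transcript.

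Nat8 was above the low range in 25 of 45 WT mice and in every PPARα -/- mouse. WT controls had 4.82, 4.88 and 5.70 in the first run and 4.18, 5.07, 5.14 and 5.37 in the later run. PPARα -/- controls had 7.15, 7.78, 7.79, 7.80 and 8.15, and 7.62, 8.48, 8.94 and 8.98. The groups did not overlap, and their means differed by 2.60 and 3.57. Treated mice of the first run had 2.78 to 5.39 in WT (median 4.59) and 5.85 to 8.42 in PPARα -/- (median 7.70). In the later run they had 5.59 to 7.83 (median 6.54) and 7.96 to 9.43 (median 8.77). The highest WT mouse and the lowest PPARα -/- mouse were close in the later run, but no values crossed. Nat8 was higher in PPARα -/- by 3.12 ± 0.19 in the first run (adjusted p = 1.1e-25), where 17 of the 24 treated WT mice were low so that the difference has no firm size, and by 2.13 ± 0.24 in the later run (adjusted p = 5.1e-12), which is 4.36-fold.

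Cyp2d12 varied most from mouse to mouse in PPARα -/- liver. WT controls had 3.07, 3.12 and 3.38 in the first run and 3.34, 3.49, 3.72 and 3.73 in the later run. PPARα -/- controls had 3.88, 5.86, 6.67, 6.99 and 7.58, and in the later run 4.34 in 1 mouse and 6.59 to 7.63 in the others. In each run 1 PPARα -/- control was low, far below the others though still above the WT mice, and the means differed by 3.00 and 2.82. Treated mice of the first run had 2.63 to 3.60 in WT (median 3.20) and 3.19 to 7.98 in PPARα -/- (median 5.61). In the later run they had 3.06 to 4.41 (median 3.65) and 4.29 to 7.61 (median 5.89). All 45 WT mice and 14 of 48 PPARα -/- mice were low, and the genotypes overlapped at the lower end. The difference over treated mice was 2.39 ± 0.25 in the first run (adjusted p = 1.5e-13; at least 1.55-fold) and 2.11 ± 0.32 in the later run (adjusted p = 9.3e-08; at least 1.78-fold).

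Thus all 6 genes were higher in PPARα -/- mice over the treated mice of both runs. Of all probesets tested, 35.6% were called higher in the first run and 21.8% in the later run, and the calls are to be read against these shares. These probesets passed the authors' filter on variation and the one used here. A genotype difference helps a probeset pass, so the shares can be higher than over the whole array. The median difference over the 6 genes was 3.64 in the first run and 3.36 in the later run, against 0.05 and 0.00 over all probesets. In treated WT mice of the first run, Blnk, Meg3 and Cyp2d12 were low in all 24, Serpinb1a in 23, Sult1e1 in 20 and Nat8 in 17. In the later run Serpinb1a, Blnk and Cyp2d12 were low in all 14. Differences and ranks that rest on such values have no firm size. Ranked by the difference in treated mice, Blnk stood at 4 and 5, Serpinb1a at 5 and 3, Nat8 at 14 and 26, Meg3 at 29 and 12, and Cyp2d12 at 40 and 28 of 6234 genes in the first and later run. In the first run the treated mice of the genotypes did not overlap for 4 of the 6 genes, all but Serpinb1a and Cyp2d12, and this was so for 0.947% of all probesets. In the later run they did not overlap for 5 of the 6, all but Cyp2d12, against 1.1% of all probesets.

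**Figure D2:**
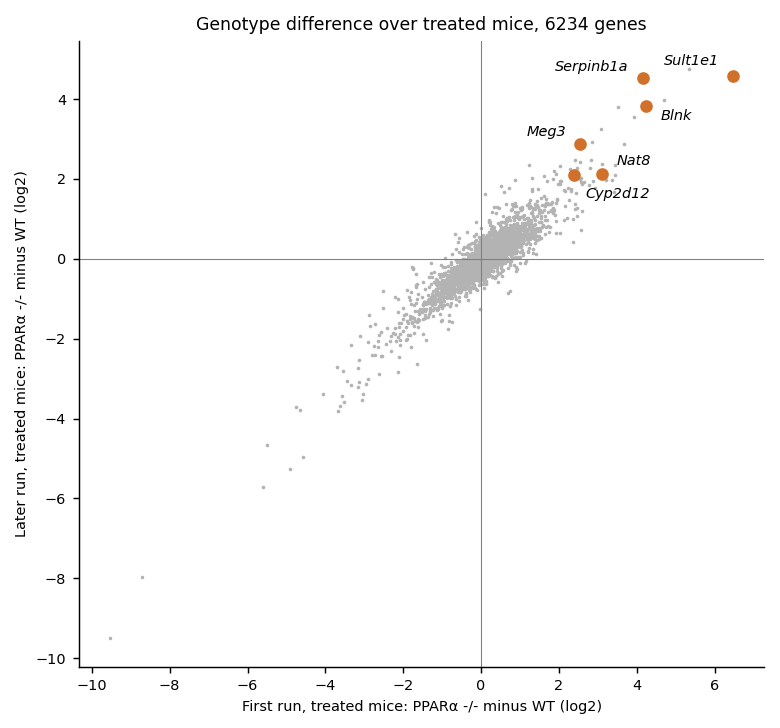
Difference between PPARα -/- and WT over treated mice for 6234 genes, first run on the horizontal and later run on the vertical axis (log2). Grey points are all genes and orange points the 6 named genes, which lie at the upper right, with Sult1e1 farthest to the right at 6.48 and 4.57.

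Within single treatments the difference was tested 48 times, 6 genes in 8 treatments, and PPARα -/- was called higher in 47. All 6 genes were called with WY14643 (27.9% of all probesets were called higher), fenofibrate (20.4%), C18:1 (8.26%), C20:5 (7.26%), C10:0 (5.45%), C18:2 (6.22%) and C18:3 (15.2%). With C22:6, 5 of the 6 were called, against 18.3% of all probesets. The exception was Cyp2d12, for which PPARα -/- mice given C22:6 had 3.19, 3.49, 4.00, 4.20 and 5.22 and WT mice 2.63, 3.21, 3.23, 3.26 and 3.40. These overlapped, 4 of the 5 PPARα -/- mice were low, and the difference of 0.87 ± 0.55 did not pass (adjusted p = 0.22). The groups were separate in 46 of the 48 gene and treatment pairs, the other exception being Serpinb1a with WY14643. Of all probesets, 23.7% were separate in this direction with WY14643, 12.4% with fenofibrate, 6.7% with C18:1, 8.91% with C20:5 and again 8.91% with C22:6, 4.51% with C10:0, 7.44% with C18:2 and 10.3% with C18:3. A fit with the replicate number as a block left 46 calls and lost that of Cyp2d12 with C18:2 (adjusted p = 0.087). The block fit, here and below, holds only the groups compared, so a lost call need not come from the block. A pseudocount of 16 left 45 and lost those of Cyp2d12 with C18:1 (adjusted p = 0.063) and C18:3 (adjusted p = 0.067).

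**Figure D3:**
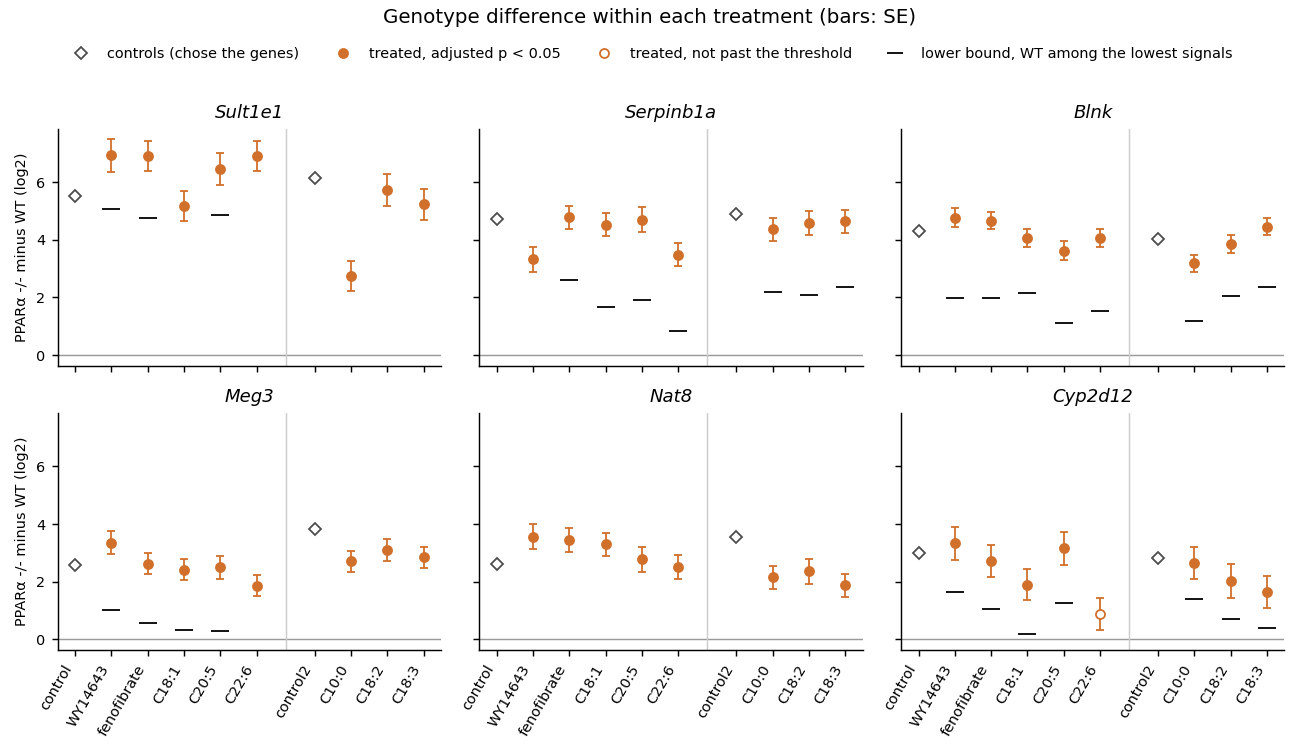
PPARα -/- minus WT (log2) for each gene within each treatment, with SE bars from the limma fit. Diamonds are the controls, which chose the genes and carry no test, filled circles passed an adjusted p of 0.05, the open circle (Cyp2d12 with C22:6, 0.87) did not, and black dashes are lower bounds where all WT mice were low and the bound lies above 0.

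The fitted difference ranged most widely for Sult1e1. It was 6.93 ± 0.56 with WY14643, 6.92 ± 0.53 with fenofibrate and 6.46 ± 0.56 with C20:5, but all WT mice of these groups were low, and against the 10th percentile the differences are at least 5.07, 4.75 and 4.85. Elsewhere it was 5.18 ± 0.53 with C18:1 and 6.90 ± 0.53 with C22:6, where 2 and 4 of the 5 WT mice were low. In the later run it was 5.74 ± 0.56 with C18:2 (3 of 4 WT mice low), 5.23 ± 0.53 with C18:3 (1 of 5) and 2.75 ± 0.53 with C10:0. The values with WY14643, fenofibrate and C20:5 can therefore not be ordered against that with C18:1, and the smallest value was the one with C10:0, where no WT mouse was low. A moderated F test of equal genotype differences among the treatments of a run called none of the 6 genes in either run, while it called 16.3% of all probesets in the first run and 0% in the later run. The unadjusted p was 0.00031 for Sult1e1 in the later run, but its adjusted p was 0.64. The lowest adjusted p in the first run was 0.081, for Cyp2d12. At an unadjusted p under 0.05 the test passed for 2 of the 6 genes in each run. A difference that varies with treatment was therefore not shown for any of the 6 genes.

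The change of each gene with treatment was examined next, to see which levels moved within a genotype. These comparisons reuse the control mice that chose the genes. For a gene picked because its WT controls were low or its PPARα -/- controls high, the choice itself can favour a rise in WT and a fall in PPARα -/- mice, and the treatments of a run share their controls. In WT mice 6 of 48 gene and treatment pairs were called, all of them rises, and in PPARα -/- mice 3 of 48, all of them falls with C22:6. Depending on the treatment, 0% to 26.8% of all probesets were called in WT and 0% to 14.9% in PPARα -/- mice. In a fit that held only the 2 groups compared, without or with the replicate number as a block, the count was 0 in each genotype.

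In WT mice Sult1e1 rose with C10:0. Its signal was 6.62, 6.81, 8.01, 8.34 and 9.55 in the 5 mice given C10:0, all above the 4 controls, of which the highest had 4.64. The controls were all low, so the rise of 4.07 ± 0.56 (adjusted p = 1.3e-06) corresponds to at least 7.96-fold. C10:0 changed 1.59% of all probesets in WT mice, and 2 of the 6 genes, Sult1e1 and Meg3. With only the 2 groups in the fit, the adjusted p for Sult1e1 was 0.073. In the same run Sult1e1 was 2.96, 4.96, 4.96 and 5.00 in WT mice given C18:2 and 3.99, 5.19, 5.25, 5.59 and 6.25 in those given C18:3, below every mouse given C10:0. Among the treated WT groups of the later run, a set of tests that does not use the controls, Sult1e1 varied (F test, adjusted p = 0.00046), and only 0.0193% of all probesets did. This call was lost with the replicate number as a block (adjusted p = 0.73) and with only these groups in the fit (adjusted p = 0.39). C10:0 exceeded C18:2 by 3.39 ± 0.56 (adjusted p = 0.00046, 0.00966% of probesets called) and C18:3 by 2.61 ± 0.53 (adjusted p = 0.021, 0.0193% called). C10:0 is a medium-chain saturated fatty acid and the others are long-chain polyunsaturated ones. These are 2 of 13 pairs of treatments per genotype, computed after the values had been seen and adjusted over all probesets within each pair. In PPARα -/- mice Sult1e1 was 9.91, 10.08, 10.80, 10.99 and 11.27 with C10:0, which overlapped the controls.

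In the first run the treated WT groups also differed for Sult1e1 (F test, adjusted p = 0.022, against 26.5% of all probesets). The highest mean was that with C18:1, where the mice had 2.75, 3.32, 5.51, 5.94 and 6.07, and the lowest that with fenofibrate, with 2.12, 2.67, 2.68, 3.10 and 3.19. Fenofibrate was below C18:1 by 1.97 ± 0.53 (adjusted p = 0.0044, 16.9% called) and WY14643, with 1.64, 2.90, 3.04 and 4.50, by 1.70 ± 0.56 (adjusted p = 0.013, 31.6% called). All fenofibrate and WY14643 mice were low, so differences among such values have no firm size. The F test was lost without any of 3 single WT mice given C18:1 (adjusted p = 0.10 to 0.15). It was also lost with a pseudocount of 16 (adjusted p = 0.16), with only these groups in the fit (adjusted p = 0.11) and with the replicate number as a block (adjusted p = 0.088).

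Meg3 and Nat8 were higher in treated than in control WT mice of the later run. All 14 treated WT mice lay above all 4 controls for both genes, with a lowest treated value of 4.46 against a highest control of 4.23 for Meg3, and of 5.59 against 5.37 for Nat8. This was so for 2 of the 6 genes and for 0.802% of all probesets, from which nothing is read because the low values of these 4 controls were part of the choice. The 3 treatments share these controls. Meg3 rose by 1.49 ± 0.39 with C10:0 (adjusted p = 0.030), by 1.66 ± 0.42 with C18:2 (adjusted p = 0.042, 0.435% of probesets called) and by 1.44 ± 0.39 with C18:3 (adjusted p = 0.021, 3.52% called). Since the controls were all low, these are at least 1.44-fold, 1.62-fold and 1.40-fold. Another Meg3 probeset gave 2.05, 2.09 and 1.85 (adjusted p = 0.027, 0.061 and 0.029), and the remaining 3 were not called. Nat8 rose by 1.95 ± 0.43 with C18:3 (adjusted p = 0.0025), or 3.87-fold. With C10:0 and C18:2 the difference for Nat8 was 1.39 ± 0.43 (adjusted p = 0.070) and 1.56 ± 0.45 (adjusted p = 0.094). The Meg3 calls were fragile: without replicate 3 of the WT controls their adjusted p was 0.10, 0.099 and 0.080. When single mice were left out in turn, the call was lost in 7 of 9 fits with C10:0, 7 of 8 with C18:2 and 3 of 9 with C18:3, with adjusted p values of up to 0.20. In the first run no treatment changed Meg3 or Nat8 in WT mice, and neither gene varied among the treated WT groups of that run (adjusted p = 0.91 and 0.97) or of the later run (adjusted p = 1 for both).

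Serpinb1a was called higher with WY14643 in WT mice (26.8% of probesets called). The mice had 3.00, 3.01, 3.45 and 5.41, against 1.94, 2.42 and 2.45 in the controls. Only the mouse at 5.41 was above the low range, and without it the difference fell from 1.45 ± 0.49 (adjusted p = 0.018) to 0.88 (adjusted p = 0.20). Without control mouse 2 it was 1.28 (adjusted p = 0.083). The variation of Serpinb1a among treated WT groups of the first run (F test, adjusted p = 0.0085) was likewise lost without this mouse (adjusted p = 0.21). In separate comparisons of pairs, WY14643 exceeded C18:1 by 1.66 ± 0.43, C20:5 by 1.54 ± 0.43 (21.4% of probesets called) and C22:6 by 1.44 ± 0.43 (13% called). The adjusted p values were 0.0014, 0.0052 and 0.015. These pairs include the mouse at 5.41, and all WT mice given C18:1, C20:5 and C22:6 were low. The differences therefore have no firm size. Blnk and Cyp2d12 were not called with any treatment in WT mice, and all their values there were low, although Blnk was lower with WY14643 than with C18:1 by 0.91 ± 0.33 (adjusted p = 0.025). Fenofibrate, C18:1, C20:5 and C22:6 changed none of the 6 genes in WT mice, with 13.9%, 0%, 0.551% and 5.87% of all probesets called and adjusted p values for the 6 genes of 0.13 or more.

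**Figure D4:**
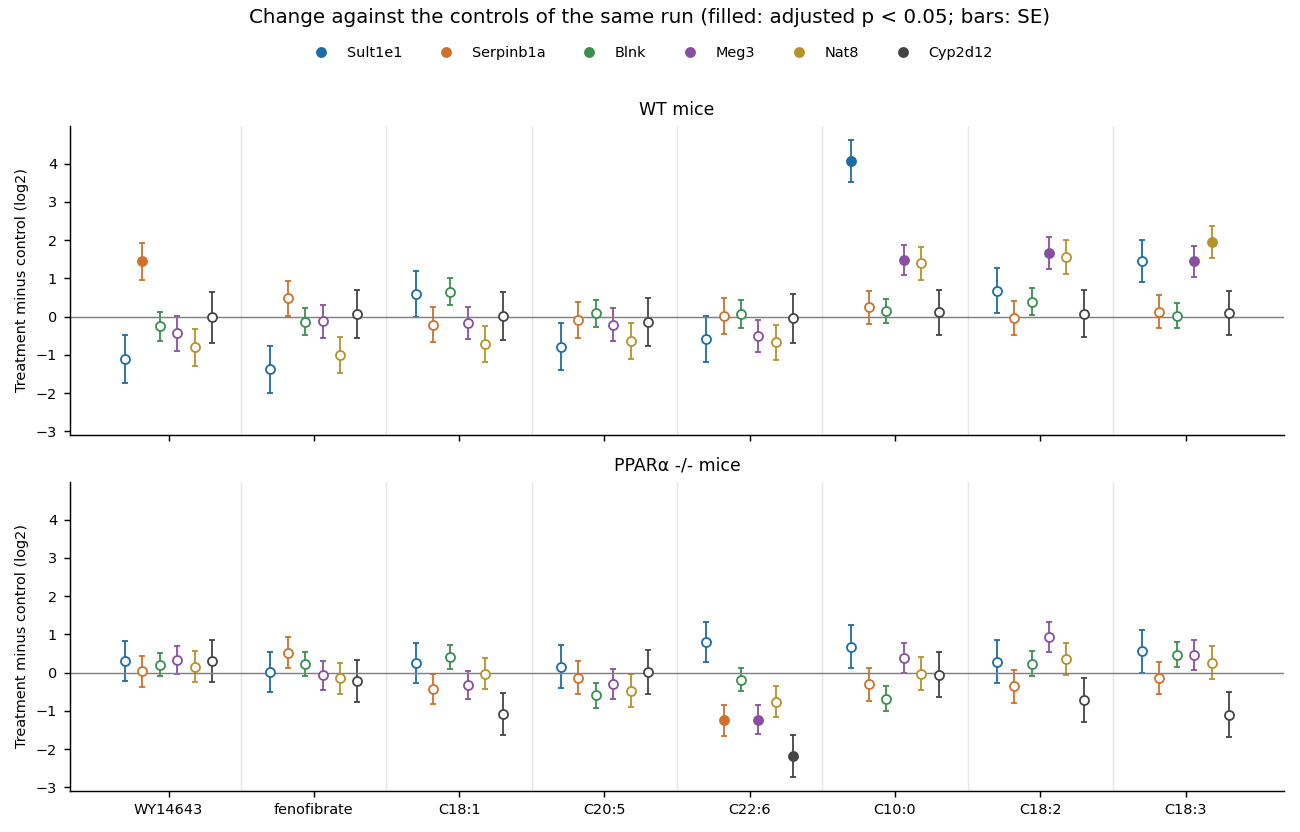
Treatment minus control of the same run (log2) for the 6 genes, WT mice above and PPARα -/- mice below, with SE bars from the limma fit and filled points where the adjusted p was under 0.05. In WT mice Sult1e1 with C10:0 stands out at 4.07, and in PPARα -/- mice the 3 filled points, all with C22:6, lie between -1.23 and -2.17.

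In PPARα -/- mice 3 of the 6 genes were called lower with C22:6 than in controls, with 14.9% of all probesets called. The high values of these controls were part of the choice. By the labels these controls were 12 to 20 and the C22:6 mice 8 to 24 weeks old. The controls received carboxymethyl cellulose and no triglyceride. Cyp2d12 fell by 2.17 ± 0.55 on the log2 scale (adjusted p = 0.0051), a difference of no firm size because 4 of the 5 mice given C22:6 were low, and the mice given C22:6, at 3.19 to 5.22 as listed above, overlapped the control with 3.88. Serpinb1a was 4.95, 5.25, 5.58, 6.13 and 6.88 with C22:6, where 2 mice lay within the range of the controls and 3 below it, and fell by 1.25 ± 0.40 (adjusted p = 0.025). Meg3 was 3.44, 3.58, 4.03, 5.26 and 5.41, where 3 mice were low and 3 lay below all controls, and it fell by 1.23 ± 0.37 (adjusted p = 0.018). Another pair of Meg3 probesets fell by 1.59 and 1.64 (adjusted p = 0.013 and 0.020), and the remaining ones had -1.30 and -0.30 (adjusted p = 0.062 and 0.63). Without C22:6 mouse 2, the adjusted p became 0.13 for Serpinb1a and 0.10 for Meg3, and without C22:6 mouse 3 it became 0.075 and 0.082. The Serpinb1a call was also lost without control mouse 1, 2 or 4 of the first run (adjusted p = 0.10, 0.058 and 0.053). The fall of Cyp2d12 kept its call when any single mouse was left out. With only the 2 groups in the fit, adjusted p was 0.18 for Cyp2d12 and 0.19 for Serpinb1a and Meg3, so no call remained. With C22:6, Sult1e1 had 9.88, 10.33, 10.45, 10.77 and 10.83, the highest group mean of the first run (10.45). Nat8 had 5.85, 6.39, 6.56, 7.85 and 8.21 and the lowest mean of that run (6.97), and neither was called. None of the 6 genes was called in PPARα -/- mice with WY14643 (0% of probesets called), fenofibrate (0.126%), C18:1 (1.48%), C20:5 (0.0676%), C10:0 (6.92%), C18:2 (0.271%) or C18:3 (10.6%).

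The same 3 genes varied among the treated PPARα -/- groups of the first run, a test that leaves the controls out (F test, adjusted p = 0.0088 for Cyp2d12, 0.024 for Serpinb1a and 0.035 for Meg3, against 6.88% of all probesets). C22:6 was the lowest group for each. In the order given, the adjusted p was 0.20, 0.20 and 0.38 with the replicate number as a block and 0.19, 0.27 and 0.40 with only these groups in the fit, so that no call remained. Cyp2d12 was lower with C22:6 than with WY14643 by 2.48 ± 0.55 (adjusted p = 0.0045, 5.52% called), fenofibrate by 1.96 ± 0.55 (adjusted p = 0.013, 12.2% called) and C20:5 by 2.19 ± 0.58 (adjusted p = 0.027, 3.18% called). Compared at the same volume, C22:6 and C20:5 differ in chain length and by 1 double bond. Serpinb1a with C22:6 was lower than with WY14643 by 1.28 ± 0.40 (adjusted p = 0.043) and fenofibrate by 1.77 ± 0.40 (adjusted p = 0.0025), and Meg3 by 1.56 ± 0.37 (adjusted p = 0.0082) and 1.15 ± 0.37 (adjusted p = 0.030). The agonists were given as 4 mg and the triglycerides as 400 µl, so these doses are not matched. The agonists were also given in carboxymethyl cellulose. By the labels the WY14643 mice were 12 to 20 and the C22:6 mice 8 to 24 weeks old. Without C22:6 mouse 2, none of the 3 F tests passed (adjusted p = 0.065, 0.14 and 0.19 in the order above). Without C22:6 mouse 3 the tests of Serpinb1a and Meg3 did not pass (adjusted p = 0.080 and 0.15), and that of Meg3 was also lost without C22:6 mouse 5 or WY14643 mouse 2 or 5 (adjusted p = 0.079, 0.075 and 0.062). Whether the change with C22:6 differed between the genotypes was not shown, since the F tests of equal genotype differences were not called. In the later run no gene varied among the treated PPARα -/- groups (0.087% of probesets called), with a lowest adjusted p of 0.11 for Blnk. The pair of C10:0 (5.18, 5.66, 5.68, 6.77 and 7.25) and C18:3 (6.66, 7.09, 7.36, 7.47 and 7.73) was called for Blnk, lower with C10:0 by 1.15 ± 0.31 (adjusted p = 0.045, 0.879% called), although these groups overlap.

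Families and pathways of the 6 genes were compared over treated mice, with 38.1% of all genes called higher and 26.5% lower in the first run, and 23.6% and 22.3% in the later run. The 6 genes were chosen for large differences, so nothing is read from smaller ones in their relatives. Among the other sulfotransferases and enzymes of sulfate donor synthesis, 5 of 9 measured genes were higher and 1 lower in the first run, and 4 and 1 in the later run. The differences were 0.79 and 0.74 for Sult1c2, 0.68 and 0.65 for Sult5a1, 0.63 and 0.03 for Sult1b1 (adjusted p = 0.84 in the later run) and 0.50 and 0.64 for Sult1a1, all under 1 against 6.48 and 4.57 for Sult1e1. Sult1c2 had treated WT means of 4.66 and 3.96, so its differences have no firm size. Papss2, which makes PAPS in liver, differed by 0.13 and 0.15 (adjusted p = 0.11 and 0.16). Among 14 other genes of estrogen and steroid inactivation, 4 were higher and 6 lower in each run. Hsd17b11 and Hsd17b4, both of the 17-beta-hydroxysteroid dehydrogenase family, had -2.02 and -1.35 in the first run and -1.51 and -1.45 in the later run. Cyp1a2, which hydroxylates estrogens, had 0.64 and 0.34.

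In the other families the differences were smaller than those of the 6 genes, which the choice of the 6 favours. Of 4 other clade B serpins, Serpinb8 (1.00), Serpinb6a (0.73) and Serpinb9 (0.39) were higher in the first run and Serpinb6b (-0.04) was not, and Serpinb6a alone was higher in the later run (0.35). Of 4 other Cyp2d genes, Cyp2d10 and Cyp2d22 were higher by 0.24 each in the first run and by 0.16 and 0.21 in the later run. Cyp2d9 was higher by 0.14 in the first run, and Cyp2d13 was lower in the later run (-0.65). The Cyp2d genes are close in sequence, so their probesets may share signal. Of 11 other genes of the Nat8 family and the mercapturate pathway, 5 were higher and 2 lower in the first run, and 2 and 2 in the later run, with Nat8f1 higher by 0.57 and 0.41 and Gsr, glutathione reductase, lower (-0.35 and -0.31). Of 6 other imprinted genes, 3 were higher and 1 lower in the first run, and 1 and 2 in the later run. The largest was Peg3, a paternally expressed gene, with -1.62 and -0.89, whereas Plagl1 had 0.52 and 0.20 and Impact 0.31 and 0.45. None of these 6 lies in the Dlk1-Dio3 cluster. Peg3 had means of 4.08 and 3.43 in treated WT and 2.46 and 2.54 in treated PPARα -/- mice, so its differences have no firm size. The same holds for Serpinb8 and Plagl1 in the first run, with WT means of 4.16 and 4.37.

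Sult1e1 is listed among genes known to be higher in female than in male liver, and Cyp2d9 among male-biased ones. All mice here were male. Of all genes, 38.1% were called higher and 26.5% lower in the first run, and 23.6% and 22.3% in the later run. Of 7 other female-biased genes measured, 1 was higher and 3 lower in the first run, and 3 and 3 in the later run. Acot3 had -4.66 and -3.79, Cyp2b10 had 1.23 and 2.34, and Cyp2c39 had -1.04 and -1.55. In treated mice of the first run Cyp2b10 had means of 2.93 in WT and 4.15 in PPARα -/-, so its difference there has no firm size. Of 14 male-biased genes, 8 were higher and 2 lower in the first run and 3 and 2 in the later run, with Elovl3 at -1.61 and -1.70 and Hsd3b5 at 0.85 and -0.15 (adjusted p = 0.71 in the later run). Neither list moved as a whole in 1 direction in both runs.

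Blnk and Serpinb1a are best known from blood cells, so the markers of other cell types were read beside them. Of all genes, 38.1% were called higher in the first run and 23.6% in the later run, and the counts are to be read against these shares. Of the B cell list, 6 of 6 other measured genes were higher in PPARα -/- in the first run and 4 of 6 in the later run, with medians of 1.16 and 0.61. They were led by genes of antigen presentation that macrophages also express, H2-Aa (1.19 and 0.63), H2-Eb1 (1.17 and 0.50, adjusted p = 0.062 in the later run), Cd74 (1.17 and 0.61) and H2-Ab1 (1.16 and 0.61), and the immunoglobulin heavy chain Ighm had 0.65 and 0.33 (adjusted p = 0.36 in the later run). The summed signal of the list (linear) was 982 to 2966 in treated WT and 1741 to 4880 in treated PPARα -/- mice of the first run, and 1143 to 2022 and 1571 to 3570 in the later run, so the genotypes overlapped. Of the neutrophil list 2 genes were measured, S100a8 (1.63 and 1.22) and S100a9 (1.11 and 1.10), both higher in both runs, with sums of 7.89 to 24.96 and 9.94 to 232 in the first run and 9.71 to 17.3 and 11.5 to 118 in the later run. Of 15 Kupffer cell and macrophage markers, 15 were higher in the first run and 5 in the later run (medians 0.96 and 0.35), with Timd4 at 1.41 and 0.12, Cd68 at 1.40 and 0.47, Cd5l at 1.32 and 0.53 and Marco at 1.21 and 0.19. Their sums were 1224 to 4301 in WT and 1917 to 8355 in PPARα -/- treated mice of the first run, and 2012 to 4677 and 2692 to 4346 in the later run. Of 8 stellate cell and fibroblast markers, 8 were higher in the first run and 2 in the later run (medians 0.63 and 0.32), with Col3a1 at 2.36 and 0.42 (adjusted p = 0.46 in the later run). Their sums were 1154 to 1706 in WT and 1554 to 3952 in PPARα -/- treated mice of the first run, and 1545 to 1999 and 1850 to 3876 in the later run. Endothelial markers were higher for 3 of 6 and 2 of 6 genes, with sums of 594 to 933 and 637 to 1236, and of 929 to 1269 and 1012 to 1563 in the later run. Hepatocyte markers were higher for 3 of 8 and 4 of 8 genes, with medians of 0.09 and 0.06 and sums of 63457 to 76631 and 70321 to 81433 in the first run and of 97415 to 107334 and 99525 to 111059 in the later run. Of the kidney, pancreas and fat list only Cela1 was measured, with 0.05 and -0.23, and it was not called. Some markers rest on low values. In treated mice of the first run, S100a8, S100a9, Marco, Timd4 and Cd68 had means of 1.72 to 3.36 in WT and 2.93 to 4.77 in PPARα -/-. In the later run these were 1.93 to 3.50 and 2.12 to 3.91. Col3a1 and Ighm had WT means of 4.33 and 4.50 in the first run. Differences that rest on such values have no firm size. The defining markers Cd79a, Cd79b and Ms4a1 of B cells and Elane, Mpo, Ltf and Ngp of neutrophils, and the lists for T and NK cells and for cholangiocytes, were not analysed here because no tested probeset carries their symbols. Such an absence can come from the filters on variation and does not mean absence from the array. The genes measured of each list are those that varied, so the counts above describe a selected part of each list. The part of other cell types in the differences of Blnk, Serpinb1a and the other genes was not tested.

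Because the genotypes also differ by substrain, the genes that lie next to the 6 genes on the chromosomes were read from the RefSeq order of genes (no positions are given because the build behind the files is not stated in the sources used here). Sult1e1, Serpinb1a, Blnk, Meg3, Nat8 and Cyp2d12 lie on chromosomes 5, 13, 19, 12, 6 and 15. Cyp2d12 alone shares its chromosome with Ppara, the deleted gene, with 42 coding genes between them. Of the 10 of these 42 that were measured, 2 were higher and 3 lower in the first run, and 1 and 2 in the later run, among them Arfgap3 with 1.38 and 0.72, 5031439G07Rik with -1.76 and -1.58 and Atxn10, the measured gene closest to Ppara on that side, with -0.28 and -0.27. Among the 50 coding genes on each side of Ppara, 28 were measured, of which 7 were higher (25%) and 10 lower in the first run, and 4 (14.3%) and 9 in the later run. Of the 56 measured among 100 on each side, 19 were higher and 18 lower in the first run, and 9 and 13 in the later run. Over all genes 38.1% were higher and 26.5% lower in the first run, and 23.6% and 22.3% in the later run. On the other side of Ppara the nearest measured gene was Brd1 (0.08 and 0.09, adjusted p = 0.29 and 0.37).

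The neighbours of the 6 genes differed by less than the genes themselves. The 6 genes were chosen for large differences, so nothing is read from this. Dntt, next to Blnk and known for adding nucleotides at the joints of antigen receptor genes, was higher by 1.56 and 1.34 (adjusted p = 8.2e-16 and 5.5e-09). Sult1d1, next to Sult1e1, was higher by 0.61 and 0.47, and Nat8f2, next to Nat8, by 0.30 and 0.18. Cyp2d9, a single coding gene away from Cyp2d12, differed by 0.14 and 0.01, and Wrnip1, next to Serpinb1a, by -0.32 and -0.04. On the other sides and farther off, Pdlim1 (beyond Blnk) had 0.24 and 0.25, Jchain (beyond Sult1e1) 1.26 and 0.81, Serpinb6b -0.04 and 0.27, Cct7 (beyond Nat8) -0.20 and -0.17 and Serhl (beyond Cyp2d12) 0.04 and -0.19. For Meg3 the nearest measured genes were Slc25a47 (-0.03 and -0.01) and Ppp2r5c (-0.50 and -0.60). These values describe neighbours, and a sequence difference between the substrains at a probe or a gene was not tested.

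Finally, the genes whose pattern was most like that of each member were found over all 6234 genes, as a description. Over the 20 group means, which mainly carry the difference between genotypes, Blnk was most like Irf7 (Pearson's r = 0.98) and Usp18 (0.98), both interferon-induced genes, Sult1e1 like Sqle (0.97), the squalene epoxidase of cholesterol synthesis, Serpinb1a like Clta (0.96), a clathrin light chain, Nat8 like Csrp1 (0.98) and Oat (0.98), Meg3 like Dmgdh (0.96), and Cyp2d12 like Lrtm1 (0.96). After the group means were subtracted, over 93 arrays, the highest values were lower, namely 0.67 for Nat8 with Aldh1a1, 0.61 for Cyp2d12 with Car3, 0.59 for Sult1e1 with Omd, 0.54 for Serpinb1a with Shmt1, 0.54 for Meg3 with Aldh1a1 and 0.52 for Blnk with Zc3hav1. Between the 6 genes themselves these within-group correlations ran from -0.25 (Sult1e1 with Blnk) to 0.42 (Serpinb1a with Cyp2d12), although their group means were correlated at 0.75 to 0.96. The arrays share runs and processing, and low values share a floor.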

How the data were processed

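The authors hybridized liver RNA of single mice to Affymetrix mouse whole-genome arrays and, per the labels, made the values with GC-RMA (GCRMA 2.20 in the submitters' processing notes). The deposited table holds linear intensity values, 11463 probesets by 93 arrays. The paper gives this number of probesets as what was left after its filter on inter-quartile range. The genome build behind the table is not given in the sources used here. Array number limits the precision.

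The members and all gene lists were chosen with earlier results of these data known. In the present work 51 control probesets were left out, log2 of the intensity was taken with no further normalization, and probesets with an inter-quartile range of at least 0.25 over the 83 arrays other than C10:0 were tested. Symbols came from the platform annotation (10279 probesets with 1 symbol, 406 with several and 727 with none). A gene was represented by its probeset with the highest mean log2 signal. limma 3.58.1 in R 4.3.3 was fitted to all 93 arrays with a mean for each of the 20 groups, followed by eBayes. Contrasts within a run, and F tests over the treatments, were adjusted with Benjamini-Hochberg over all 10349 probesets, and called at an adjusted p under 0.05. Named genes were the 6 members, the 4 of each list with the largest absolute difference over treated mice of the first run, the nearest measured neighbours, the 3 most similar genes by each measure (the first is printed) and those just inside and outside the choice. Sult1a1, Papss2, Impact, H2-Ab1, Ighm, Alb, Arfgap3 and 5031439G07Rik were named after their values were seen.

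No arrays were duplicates. Labels do not state separate cages or days, so p-values measure the spread between these mice. Replicate numbers paired the mice (every pair's correlation of deviations over 0.1) in 2 of 24 comparisons, PPARα -/- against WT with fenofibrate (0.13 to 0.35) and PPARα -/- WY14643 against control (0.11 to 0.30), where the block changed no call. On simulated data, checked for all 10349 probesets, 100% of log2 changes of 1 were recovered over treated mice of the first run, and 81% with C22:6 between genotypes. Figures were drawn with matplotlib 3.10.9.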

Additional observations from a re-analysis of the deposited data

Results flagged for a closer look

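In 5 of 114 groups of 4 or 5 mice, 1 mouse stood apart from the rest by Dixon's ratio of its gap to the range of the group. Chance gives about 1 group in 20. Sult1e1 was lowest in PPARα -/- WY14643 replicate 5, at 8.83 against 10.09 for the next mouse (ratio 0.792). Sult1e1 was lowest in WT C18:2 replicate 4, at 2.96 against 4.96 (ratio 0.984). Serpinb1a was lowest in WT C18:1 replicate 5, at 1.46 against 2.13 (ratio 0.751). Cyp2d12 was lowest in WT C20:5 replicate 2, at 2.80 against 3.08 (ratio 0.807), and in WT C22:6 replicate 3, at 2.63 against 3.21 (ratio 0.755). The WT values are all under the 10th percentile of their arrays, where order has little meaning. PPARα -/- WY14643 replicate 5 was also the lowest mouse of its group for Serpinb1a (4.91), Cyp2d12 (3.73), Nat8 (6.97) and Blnk (6.43), and the highest for Meg3 (6.53).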

How the results depend on the processing

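All 6 genes remained higher in PPARα -/- over treated mice of both runs under every alternative that gave a value and without any single mouse (6 of 6 in each), and no named value changed direction. With C10:0 left out, the contrast over treated mice of the later run has no value. Of 48 gene and treatment pairs, 46 to 47 stayed higher when single mice were left out. The changes with treatment depended on the processing, and the cause was not tested unless named. The 6 calls in WT mice became 3 with quantile normalization over all arrays, 2 with a pseudocount of 16, and 0 both with only the groups of the contrast in the fit and with the replicate number as a block, where fewer samples estimate the spread. The 3 calls in PPARα -/- mice became 1 with array weights and 0 in those smaller fits. The count of variations among treatments within a genotype went from 6 to 2 with only the groups of the contrast and to 1 with the replicate block. Of the 6, only that of Serpinb1a among treated WT groups of the first run was kept in these fits. The 2 therefore include a call that was not among the 6. The count of genes whose genotype difference varied among treatments went from 0 to 2 with array weights and to 1 at an unadjusted p under 0.01. Leaving out single mice gave 3 to 8 calls in WT mice (3 without WT control replicate 3 of the later run), 1 to 4 in PPARα -/- mice (1 without C22:6 replicate 2 or 3), 0 to 1 varying genotype differences (1 without PPARα -/- WY14643 replicate 2 or 5 or C22:6 replicate 5) and 3 to 7 variations within a genotype (3 without PPARα -/- C22:6 replicate 2). The median difference between control mice, 3.42, became 2.31 with a pseudocount of 16 and was 3.25 to 3.57 without single mice. Of 74 single called values, 1191 of 1243 recomputed under other settings and 1090 of 1129 without single mice kept their call, all in the same direction. The replicate block left 46 of 47 genotype calls within treatments and a pseudocount of 16 left 45.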
